A study of Mus musculus with 4 samples.

Results

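SCL-binding sites assigned to the genes of the Polycomb repressive complexes were examined in FLK1+ mesoderm. The members were 31 mouse genes that encode subunits of PRC1 and PRC2, and a binding site was assigned to the protein-coding gene whose transcription start site (TSS) was nearest to its summit. Of 12885 SCL peaks on the mm9 genome, 66 were assigned to a member. They fell on 12 of the 31 genes, and 19 genes had none. The deposited list, used whole here, is longer than the study's own count of bound loci, and the methods name a filtering step after peak calling whose settings are not given in the sources used here.

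SCL (gene symbol Tal1) belongs to the basic helix-loop-helix family of transcription factors, and blood does not form without it. The study asked where SCL binds as mesoderm becomes committed to blood, and for this wild-type cells were used for SCL ChIP-seq, the sequencing of DNA fragments precipitated with the factor. J1 ES cells (strain C57Bl/6 X Sv129) were grown into embryoid bodies (EBs), the aggregates in which ES cells differentiate, and cells carrying the surface receptor FLK1 were isolated on magnetic columns at day 3.5. Chromatin of 2 independent differentiations was precipitated with an in-house SCL rabbit anti-serum, and 2 input libraries without antibody served as background. The peaks came from a single call on the merged libraries, so values carry no replicate error and differences were not tested. Intervals given for a fold are 95% Poisson intervals of the ChIP fragments counted at the summit and cover counting error only. The FLK1+ fraction was not checked against marker genes, as peaks carry no expression values.

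Polycomb complexes keep developmental genes silent. PRC2 carries the methyltransferases EZH1 or EZH2 and places H3K27me3 on nucleosomes, and PRC1 carries the ubiquitin ligases RING1 or RNF2 (RING1B) and places H2AK119ub. The forms of PRC1 differ in their PCGF subunit and in whether they hold a CBX protein, which binds H3K27me3, or RYBP or its homologue YAF2, which take the place of CBX. In developing tissues these marks lie on genes of alternative lineages, and the subunits that a cell makes decide which complexes it can form.

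DNA under the summit of the strongest peak is shown for the 7 genes whose strongest peak was in the upper quartile of all SCL peaks by fold enrichment (at least 20.1), from the highest fold to the lowest. The 2 further sequences are the sole member peak within 1 kb of an own TSS, at Phf19, and the peak next to the Rybp promoter, which was chosen after its values were seen. Each runs 5′ to 3′ on the stated strand of mm9 (NCBIM37) and covers 50 bp on each side of the summit, except at Ezh1. There 30 bases are shown because the summit lay in an exon of the neighbouring gene Cntnap1. Capitals mark 3 kinds of match in either orientation. These are the GATA word (the core GATA, preceded by A or T and followed by A or G, which reads TATC on the other strand), the E-box CANNTG, and the composite of CTG and GATA separated by 7 to 9 bases, whose spacer is left in lower case. The kinds can overlap, as a composite may take its GATA from a GATA word and its CTG from an E-box. Each match is a description of letters, not a tested site.
Ezh1, chr11:101051341-101051370, minus strand: ccccaCATCTGtccctgcTGATAGtgtaca
Rybp, chr6:99990603-99990703, plus strand: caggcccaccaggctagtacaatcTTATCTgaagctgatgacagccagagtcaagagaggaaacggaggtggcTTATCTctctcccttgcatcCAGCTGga
Pcgf5, chr19:36348097-36348197, plus strand: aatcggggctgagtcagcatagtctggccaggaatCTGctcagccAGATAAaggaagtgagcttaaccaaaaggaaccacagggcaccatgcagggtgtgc
Jarid2, chr13:44597313-44597413, minus strand: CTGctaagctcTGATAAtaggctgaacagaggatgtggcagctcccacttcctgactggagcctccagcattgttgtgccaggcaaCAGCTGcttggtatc
Bcor, chrX:11571268-11571368, plus strand: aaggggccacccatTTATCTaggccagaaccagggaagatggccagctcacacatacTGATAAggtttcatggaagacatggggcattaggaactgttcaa
Phc1, chr6:122295843-122295943, plus strand: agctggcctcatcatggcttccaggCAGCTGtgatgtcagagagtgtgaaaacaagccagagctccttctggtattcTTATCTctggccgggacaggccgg
Phc2, chr4:128329908-128330008, minus strand: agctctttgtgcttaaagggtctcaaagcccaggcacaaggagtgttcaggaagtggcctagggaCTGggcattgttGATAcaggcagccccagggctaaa
Phf19, chr2:34759432-34759532, plus strand: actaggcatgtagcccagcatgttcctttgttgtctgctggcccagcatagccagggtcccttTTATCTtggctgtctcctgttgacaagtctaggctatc
Rybp next to the promoter, chr6:100238453-100238553, plus strand: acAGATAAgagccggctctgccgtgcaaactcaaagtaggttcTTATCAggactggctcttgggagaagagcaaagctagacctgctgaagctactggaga
The strongest peaks of Ezh1, Pcgf5, Jarid2 and Phc2 each held a composite, with a spacer of 8 bases at Ezh1 and Pcgf5 and of 9 at Jarid2 and Phc2. That of Rybp held GATA words and the E-box CAGCTG but no composite, and that of Bcor held GATA words alone.

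Most SCL peaks of Polycomb genes were assigned to 4 of them. Bcor had 16 peaks, Rybp 15, and Jarid2 and Pcgf5 10 each, so that these 4 genes took 51 of the 66 peaks (77.3%). Among all 22380 protein-coding genes, 28.9% had at least 1 peak, 2.1% at least 5 and 0.246% at least 10. For the Polycomb genes the corresponding counts were 12, 4 and 4 of 31. Uneven counts were not particular to them, as all 12885 peaks fell on 6470 genes, and 55 genes held 673 of them. The share held by an equal fraction of all genes was not computed, so the 77.3% is a description. Bcor ranked 4 of all protein-coding genes by the number of peaks, Rybp 8, and Jarid2 and Pcgf5 shared rank 36. Each of the other 8 genes with a peak had between 1 and 3. The counts fell with stricter thresholds. At a fold of at least 10 there were 11 peaks at Rybp, 8 at Bcor, 6 at Pcgf5 and 4 at Jarid2, and at a −log10 q of 50 or more 9, 5, 4 and 3, while Ezh1 kept 3 at either.

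**Figure D1:**
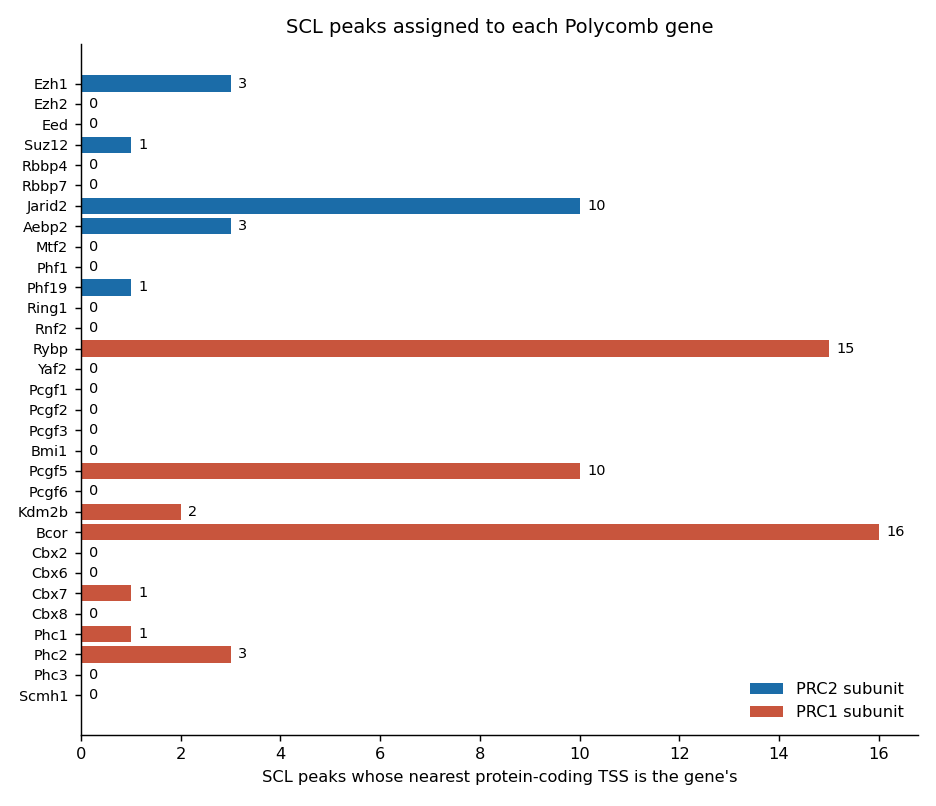
Number of SCL peaks (x axis) whose nearest protein-coding TSS belonged to each of the 31 Polycomb genes (y axis), with PRC2 subunits in blue and PRC1 subunits in red. Bcor (16), Rybp (15), Jarid2 (10) and Pcgf5 (10) stand above the other genes, which had 0 to 3 peaks.

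Within PRC2, 5 of 11 genes had a peak, and 18 peaks were found in all. The methyltransferase genes differed, with 3 peaks at Ezh1 and none at Ezh2. The strongest peak of any member was assigned to Ezh1 (chr11:101050955-101051774), with a fold of 128.7 (121.1 to 136.7) from 1072 ChIP fragments. It lay just beyond the 3′ end of Ezh1, 36.4 kb from the 5′ end of the gene and 4.39 kb from the start of a non-coding Ezh1 transcript, while the next gene, Cntnap1, had its TSS 14 kb away. When only the starts of protein-coding transcripts were used, this peak left Ezh1, which then kept 2. Those lay in front of the gene, 5.89 kb upstream with a fold of 73.3 (66.4 to 80.7) and 6.99 kb upstream with a fold of 16.8 (13.1 to 21.2). All 3 Ezh1 peaks were thus within 10 kb of an annotated Ezh1 start, and all had a fold above the median of all SCL peaks, 11.1.

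The core partners of the methyltransferases had a single peak among 4 genes. Suz12, which the complex needs for activity and stability, had a peak 9.02 kb upstream with a fold of 14 (10.7 to 18.1). Eed, whose product reads H3K27me3, and the histone-binding genes Rbbp4 and Rbbp7 had none. The summit nearest to Eed was 79.5 kb away and that nearest to Rbbp7, on chromosome X, was 290 kb away.

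The accessory subunits of PRC2 gave 14 peaks, 10 of them at Jarid2, whose product helps bring PRC2 to chromatin and stimulates it. The strongest Jarid2 peak (chr13:44597000-44597710) had a fold of 63.8 (58.8 to 69.2) from 598 fragments and lay 227.5 kb upstream. Next in strength were peaks 309.5 kb upstream with a fold of 35.1 (29.3 to 41.7), 407.9 kb upstream with a fold of 26.4 (21.4 to 32.2) and 470.9 kb upstream with a fold of 13.7 (10.4 to 17.8). The remaining 6 were weak, all below the median of all peaks. They stood 50, 144.7, 255, 311.7 and 319.8 kb upstream with folds of 7.51, 6.86, 6.47, 8.81 and 7.83, and in an intron of Jarid2 with a fold of 9.64. Jarid2 binding was therefore almost wholly distal, with 8 of 10 peaks over 100 kb upstream and 1 inside the gene. The DNA in front of Jarid2 also held transcripts that are not protein-coding, and counting the starts of lincRNA and processed-transcript genes as well left Jarid2 with 5 peaks.

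Aebp2, a DNA-binding accessory subunit, had 3 peaks with folds of 8.81 (6.66 to 11.5), 12.3 (9.2 to 16.1) and 9.69 (6.83 to 13.4). The weakest lay 91.4 kb upstream in an intron of Plekha5 and the strongest in an intron of Aebp2 itself. Phf19, a Polycomb-like subunit that binds H3K36me3, had 1 peak with a fold of 7.05 (5.15 to 9.44), and its summit was 190 bp from the start of a non-coding Phf19 transcript and 10.1 kb into the gene. The other Polycomb-like genes, Mtf2 and Phf1, had none.

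PRC1 genes took 48 peaks on 7 of 20 genes. The genes of the ubiquitin ligases themselves, Ring1 and Rnf2, had no peak, and the nearest summits were 100.1 and 166.7 kb from their TSSs. Bcor, Rybp and Pcgf5 held 16, 15 and 10 of the 48 peaks.

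Rybp had 15 peaks over 441 kb, all in intergenic DNA, 7 upstream and 8 downstream of its single annotated TSS. Its strongest peak (chr6:99990380-99991023) had a fold of 118.6 (110.5 to 127.1) from 796 fragments and lay 246.8 kb downstream, with the next gene, Prok2, 314.3 kb away. The strongest upstream peak (chr6:100281395-100281913) had a fold of 51.2 (44.5 to 58.5) at 44.3 kb. A peak next to the promoter (chr6:100237754-100238836) had a fold of 40.9 (36 to 46.2), and its summit was 1068 bp upstream, just outside the 1 kb used here for promoters. These 3 peaks stood above the rest of the Rybp peaks, of which the next had a fold of 28 (23.5 to 33.2) at 98.2 kb downstream. Those upstream at 35.2, 78.4, 103.1, 116.2 and 165.4 kb had folds of 12.5, 15, 9.97, 18 and 11.4. Those downstream at 91.1, 93.4, 101.7, 116.6, 153.9 and 275.6 kb had folds of 6.97, 6.99, 7.89, 18.4, 13.9 and 19.2. No peak lay in the Rybp gene, and 8 of the 15 were over 100 kb from its TSS. Peaks with summits at most 10 kb apart formed a row of 4 downstream (chr6:100135486-100146471, folds of 6.97 to 28) and a pair upstream that included the peak with a fold of 51.2. For Yaf2, the homologue of Rybp, no peak was assigned, and the nearest summit was 175.1 kb away.

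Pcgf5 was the only 1 of the 6 PCGF genes with a peak. Its product marks a variant PRC1 that holds RYBP or YAF2 and has been linked to AUTS2. The 10 peaks covered 178.7 kb, with 7 in front of the gene and 3 in its introns. The strongest (chr19:36347908-36348365) had a fold of 69.9 (62.9 to 77.5) from 362 fragments and was the farthest, 105.4 kb upstream. Going from there towards the gene, the upstream peaks stood at 88, 59.1, 50.2, 42.3, 14 and 7.45 kb, with folds of 39.6 (33.3 to 46.8), 23.7 (19.4 to 28.8), 7.72, 10.6, 8.78 and 9.85. The 3 strongest upstream peaks were thus the 3 farthest from the gene. In the introns the folds were 22.7 (18.4 to 27.7), 8.74 and 11.1, at 16.8, 29.4 and 73.3 kb from the 5′ end. Pcgf1, Pcgf2, Pcgf3, Bmi1 and Pcgf6, whose products define the other forms of PRC1, had no peak, and the nearest summits were 58.1, 33.4, 198.4, 53.8 and 86.2 kb away.

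Bcor and Kdm2b encode subunits particular to the PRC1.1 form, and both had peaks. Pcgf1 of the same complex had none. Bcor, a co-repressor subunit that joins PCGF1, had 16 over 588 kb of chromosome X, with 5 in its introns. The strongest (chrX:11571099-11571617) had a fold of 54.9 (47.5 to 63.2) from 195 fragments and lay 166.2 kb downstream of the 5′ end, beyond the end of the gene, and 86.4 kb from the nearest Bcor start. The second (chrX:11733136-11733518) lay in an intron, 4.15 kb downstream of the 5′ end, with a fold of 39.5 (34.3 to 45.3). Both exceeded every other Bcor peak. In the other introns, at 40.7, 46.2, 73.5 and 74.2 kb from the 5′ end, folds were 17.8, 7.46, 9.32 and 18.9. Upstream peaks at 136.4, 152.3 and 181.2 kb had folds of 18.3, 9.61 and 10.5. Beyond the end of the gene, at 153, 154.9, 156.6, 203.9, 240.7, 357 and 406.9 kb from the 5′ end, folds were 15.4, 9.61, 9.32, 7.86, 14, 6.86 and 7.28. Of these, 3 formed a row of 4 with the strongest peak (chrX:11571099-11584757).

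Chromosome X as a whole had few peaks, 283 on 932 genes, or 1.7 per Mb of DNA. Bcor held 5.65% of them and ranked 1 on the chromosome by number, while its strongest peak ranked 15 there by fold. The median background at Bcor peaks was 2.43 fragments, the lowest value in the list and the same as the median over all chromosome X peaks, against 3.67 over all peaks. The part of this background in the folds at Bcor was not tested.

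Kdm2b, which brings PRC1.1 to unmethylated CpG islands, had 2 peaks in its introns, with folds of 11.9 (8.86 to 15.6) and 7.84 (5.52 to 10.8), 1.72 and 5.26 kb from a start. A further peak (chr5:123463967-123464239, fold of 16.7) lay 986 bp from a Kdm2b start and 980 bp from that of Orai1, to which the rule assigned it. The nearest gene was thus decided by a few bases there.

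The CBX genes encode the subunits of canonical PRC1 that bind H3K27me3. Cbx7 had 1 peak in its own gene, 2.66 kb downstream of a start, with a fold of 9.12 (6.32 to 12.8), and Cbx2, Cbx6 and Cbx8 had none. Among the genes of PHC subunits, which join PRC1 complexes into larger assemblies, Phc1 had 1 peak 5.31 kb upstream with a fold of 23.4 (18.9 to 28.7), while Phc2 had 3 with folds of 20.2 (17.4 to 23.4), 11.4 and 7.35, each within 10 kb of an own start. Phc3 and Scmh1, which encodes a sex-comb-on-midleg homologue, had no peak.

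None of the 19 genes without a peak had an SCL summit within 10 kb. The nearest summit was at 33.4 (Pcgf2) to 290 kb (Rbbp7), with a median of 100.1 kb, and was beyond 100 kb for 10 of them. For Ezh2 it was 40.5 kb away and nearer to Cul1. Assignment to the nearest TSS cannot say which gene a distal site acts on. A member was the next gene for 25 peaks assigned elsewhere, and for 10 of these it was less than 2 times as far as the assigned gene. Among them were strong peaks such as that with a fold of 75.2 between Traf1 (21557 bp) and Phf19 (22551 bp), and those with folds of 104.6 and 69.9 in the desert between Cd83 and Jarid2.

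The order of the strongest peaks was Ezh1, Rybp, Pcgf5, Jarid2, Bcor, Phc1, Phc2, Suz12, Aebp2, Kdm2b, Cbx7 and Phf19. The counting intervals of neighbours in this order overlapped except between Rybp and Pcgf5 and between Bcor and Phc1. The first 5 genes thus had maximum folds of 54.9 to 128.7 and the other 7 of 7.05 to 23.4. Rybp, Pcgf5, Jarid2 and Bcor had 10 to 16 peaks each, while Ezh1 and the other 7 had 1 to 3. A maximum tends to be higher where there are more peaks, and the order was not adjusted for this. Ezh1 came first through the peak assigned by the start of a non-coding transcript. With starts of protein-coding transcripts only, its strongest peak had a fold of 73.3, below the 118.6 of Rybp. Over all 66 peaks the median fold was 11.7 (95% interval of the median 9.64 to 15.4), against 11.1 for all SCL peaks. A fold of at least 10 was found for 38 peaks (57.6%, against 56.6% of all peaks) and of at least 50 for 7 (10.6%, Wilson interval 5.23 to 20.3, against 7.26%). Among the genes with many peaks, the median fold was 15 at Rybp, 10.9 at Pcgf5, 10 at Bcor and 9.22 at Jarid2. Median pileup was 51.5 ChIP fragments (range 24 to 1072), against 53 over all peaks, so the depth behind a typical member peak was like that of the list. Median width was 455.5 bp (366 to 510) against 397 bp.

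**Figure D2:**
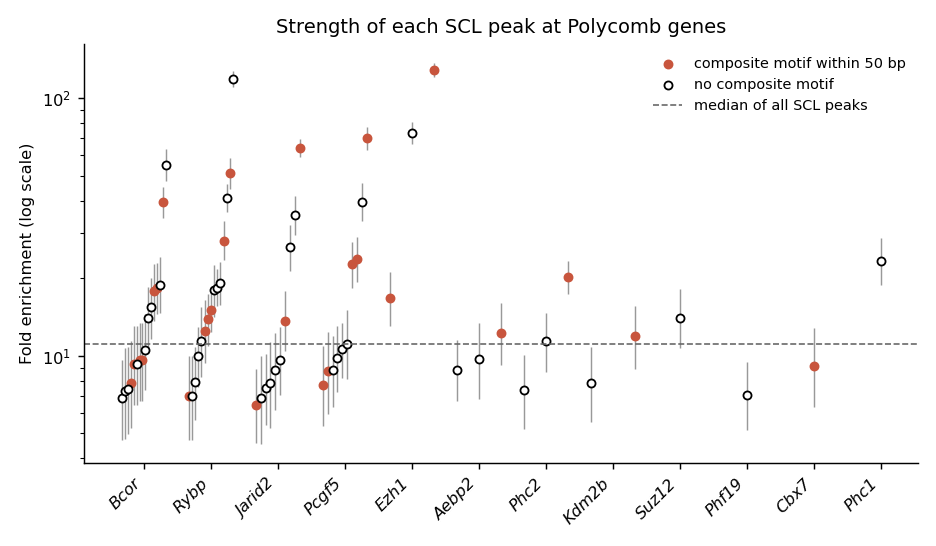
Fold enrichment (y axis, log scale) of each of the 66 SCL peaks by gene, in order of fold within a gene. Bars are 95% Poisson counting intervals, filled points hold the composite of CTG and GATA within 50 bp of the summit, and the dashed line is the median of all SCL peaks (11.1). Ezh1 and Rybp hold the highest points (128.7 and 118.6), and most peaks of Bcor, Jarid2 and Pcgf5 lie near the line.

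SCL peaks of Polycomb genes were mostly far from promoters. Only 1 of 66 (1.52%, Wilson interval 0.268 to 8.1), that at Phf19, was within 1 kb of an own TSS, where 7.59% of all SCL peaks were. Over 100 kb lay 24 peaks (36.4%, 25.8 to 48.4), against 18.5% of all peaks, and the median distance was 74.1 kb against 24.1 kb. These distal peaks came from Rybp and Jarid2 (8 each), Bcor (7) and Pcgf5 (1). The interval treats them as independent and so does not measure the spread between genes. Within 10 kb lay 19 peaks (28.8%, 19.3 to 40.6), near the 31.4% of all peaks. Every peak of Ezh1, Suz12, Phf19, Kdm2b, Cbx7, Phc1 and Phc2 was within this distance. It is taken from the nearest of all annotated starts, whose number differed. Kdm2b had 22, Jarid2 17, Phc1 15, Phc2 12, Ezh1 9, Bcor 4, Pcgf5 2 and Rybp 1. From the 5′ end of the gene, the Kdm2b peaks lay at 23.5 and 20 kb, and Phc2 had peaks at 52.1 and 69.2 kb. Summits were intergenic for 48 peaks (72.7%, against 54.1%), intronic for 16 (24.2%, against 42.4%) and exonic for 2. The next gene was within 2 times the distance of the assigned gene for 17 peaks (25.8%, against 37.7%), so that most assignments had no close competitor. At Jarid2, however, this was 5 of 10 peaks. The strongest peaks of Rybp and Pcgf5 were also among the 17, with the next gene 1.27 and 1.46 times as far.

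**Figure D3:**
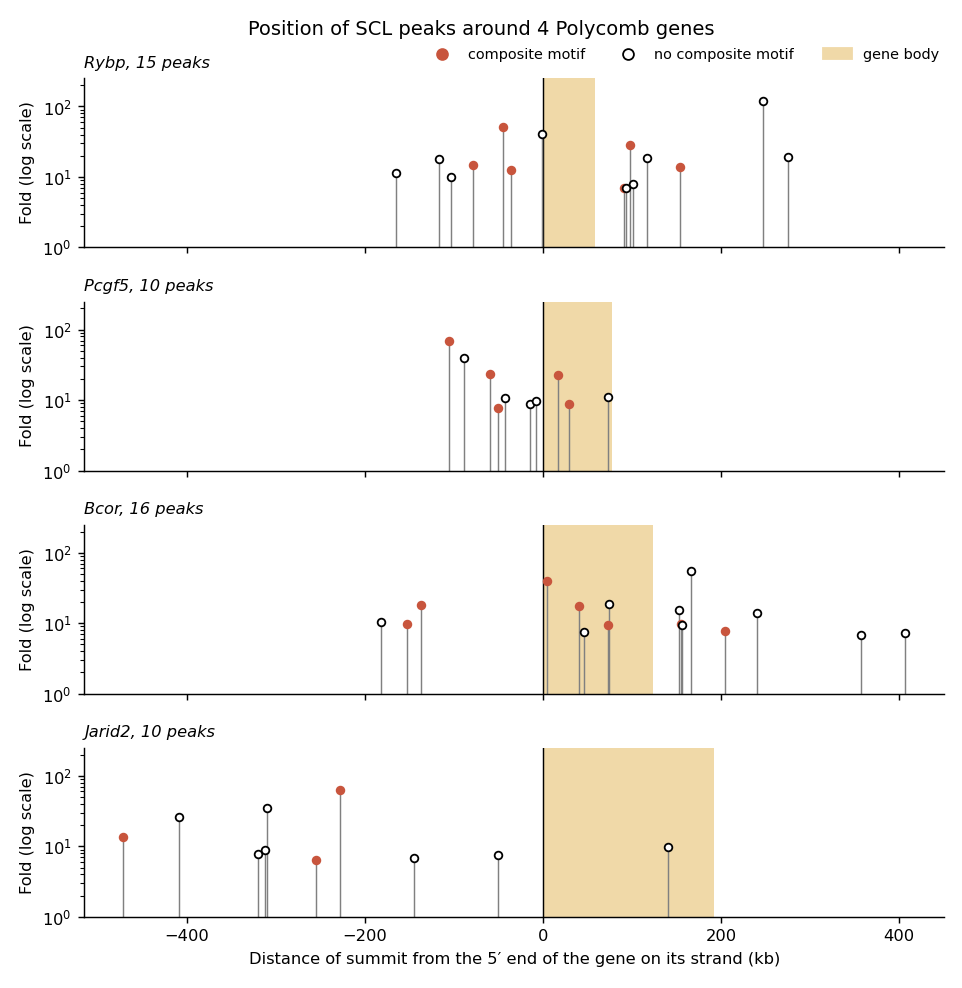
Position of SCL summits (x axis, kb from the 5′ end of the gene, positive along its strand) and fold enrichment (y axis, log scale) at Rybp, Pcgf5, Bcor and Jarid2. Shading is the gene body and filled points hold the composite. Rybp is flanked on both sides with no peak in the gene, Pcgf5 and Jarid2 are bound mostly upstream, and Bcor is bound upstream, within and downstream.

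The distances depend on the DNA around each gene, since a gene with distant neighbours is the nearest one over a longer stretch. Bcor was the nearest protein-coding gene to 669.9 kb of DNA, Jarid2 to 664.1 kb, Rybp to 472.4 kb and Pcgf5 to 232.7 kb, against a median of 45.5 kb over all genes. Relative to this length, peaks were at 43 per Mb at Pcgf5, 31.8 at Rybp, 23.9 at Bcor and 15.1 at Jarid2, and at 4.85 per Mb over all genes. The 4 genes together had 25 peaks per Mb, and all 55 protein-coding genes with at least 10 peaks had 17.5. As these genes were set apart by their number of peaks, their density is a description. Ezh1, with 3 peaks on 51 kb, had the highest density of any member, 58.8 per Mb, when starts of non-coding transcripts were included. With starts of protein-coding transcripts only it kept 2 peaks, and the densities were not computed for that case. The other 27 members had 15 peaks on 1.83 Mb, or 8.18 per Mb. Of these, 19 had no peak. Besides Ezh1, Phc2 (28.6 per Mb), Phc1 (22.8), Phf19 (21.4), Aebp2 (18.2) and Suz12 (15.7) were denser than Jarid2. Kdm2b (13.5) and Cbx7 (12.6) were less dense. Each of these values rests on 1 to 3 peaks. The rule of counting also mattered. Taking peaks in the gene or within 10 kb of it, whichever TSS was nearest, gave 5 at Bcor, 4 at Pcgf5, 3 each at Ezh1, Kdm2b and Phc2, 2 at Aebp2 and 1 each at Rybp, Jarid2, Suz12, Phf19, Cbx7 and Phc1. Rybp and Jarid2 were thus no higher than any other member with a peak under this rule. Peaks within 100 kb of an own TSS, also counted whichever TSS was nearest, were 9 each at Bcor, Pcgf5 and Cbx7, 7 each at Rybp and Ezh1, 6 at Kdm2b, 5 at Phc1 and 2 at Jarid2, and 0 to 4 at the other members. Among the peaks assigned by the nearest TSS, leaving out those over 100 kb away left 9 at Bcor, 9 at Pcgf5, 7 at Rybp and 2 at Jarid2 of 42, with at most 3 at any other member.

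**Figure D4:**
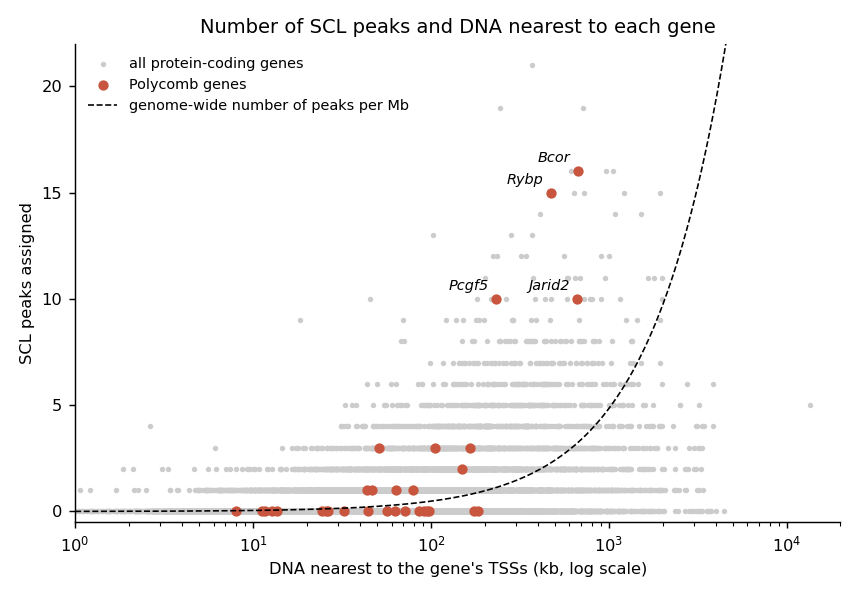
Number of SCL peaks assigned (y axis) against the length of DNA nearest to the TSSs of each protein-coding gene (x axis, kb, log scale; genes below 1 kb are not drawn). Polycomb genes are in red, other genes in grey, and the dashed line is the genome-wide 4.85 peaks per Mb. Bcor, Rybp, Jarid2 and Pcgf5 lie above the line, and members with 0 peaks reach up to 184.4 kb (Scmh1).

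Motifs known for SCL and its partners were counted within 50 bp of the summit and, as background, in windows of the same length 1 kb to each side. SCL binds E-boxes with E proteins and is joined by LMO2 and LDB1 to GATA factors. A GATA word was present in 48 of the 66 peaks (72.7%, Wilson interval 61 to 82) and in 18.9% of their flanking windows, against 73.2% and 17.8% over all SCL peaks. E-boxes were found in 33 peaks (50%), near the 43.9% of the flanks and the 52.6% of all peaks. The specific E-box CAGCTG was found in 13 peaks (19.7%, 11.9 to 30.8) and 7.58% of flanks, against 14.1% and 4.7%. The composite of CTG and GATA was present in 27 peaks (40.9%, 29.9 to 53) and 3.03% of flanks, against 32.9% and 3.07%. GATA and composite matches were therefore frequent at the summits and rare 1 kb away, at shares whose intervals held those of the whole list. These intervals treat peaks of the same gene as independent, and the difference from the whole list was not tested. Neither a GATA word nor an E-box was found in 9 peaks (13.6%, against 12.1% of all peaks).

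**Figure D5:**
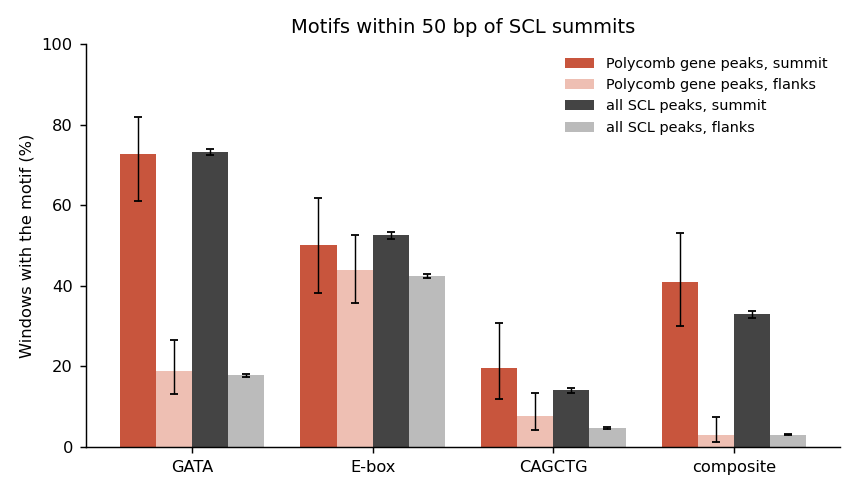
Percentage of windows (y axis) that hold a GATA word, an E-box, CAGCTG or the composite of CTG and GATA, within 50 bp of the summit and in flanking windows 1 kb away, for the 66 peaks of Polycomb genes and all 12885 SCL peaks. Bars with error lines are percentages with Wilson 95% intervals. GATA and composite are high at summits (72.7% and 40.9%) and low in flanks (18.9% and 3.03%).

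GATA words were found in 14 of 16 peaks at Bcor, 12 of 15 at Rybp and 9 of 10 at Pcgf5, and in 3 of 10 at Jarid2, where 4 peaks held neither a GATA word nor an E-box. These are neighbouring peaks of a merged call, and differences between the genes were not tested. Composites were found in 7 peaks at Bcor, 6 at Rybp, 5 at Pcgf5 and 3 at Jarid2. At Ezh1 the composite was in the strongest and the weakest of its 3 peaks, and the peak with a fold of 73.3 held neither a GATA word nor an E-box. The peak next to the Rybp promoter held GATA words in both orientations and no E-box.

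Across the 27 peaks with a composite there were 28 matches, with a spacer of 7 bases in 3, 8 in 11 and 9 in 14. Their median distance from the summit was 16.8 bp. Peaks with a composite had a median fold of 13.9, against 10.5 for the 39 without, and over all SCL peaks the medians were 13.3 and 10.3. Of the 26 member peaks whose −log10 q reached 50, 53.8% held a composite (14 peaks, Wilson interval 35.5 to 71.2), against 39.4% of all such SCL peaks. Within the 24 peaks over 100 kb from a TSS the composite share was 33.3% (18 to 53.3), against 33.1% of all such peaks, and the GATA share was 58.3% (38.8 to 75.5), against 73.4%. Of these distal peaks, 3 of 8 at Jarid2 and 11 of 16 at the other genes (68.8%) held a GATA word. Within 100 kb the GATA share was 81% (66.7 to 90), against 73.1%, and the composite share 45.2% (31.2 to 60.1), against 32.8%.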

How the data were processed

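SCL ChIP-seq was available for 2 ChIP and 2 input libraries of wild-type day 3.5 FLK1+ cells, as 1 peak list. Per the labels and methods, the authors aligned reads to mm9 with Bowtie 1.1.2, called peaks with MACS2 2.0.10 on the merged libraries and set the list by IDR. The deposited columns are the peak position and summit, a score (not used), the fold enrichment (a ratio of ChIP to local background) and −log10 p and −log10 q. The list holds no values per library and no library depth, so replicate spread and depth per library were not analysed here.

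Fold and −log10 p were solved together for the whole pileup at the summit (99.9% of peaks matched to within 0.001 in −log10 p), which gave the counting intervals. Summits were assigned to the nearest of 70064 TSSs, the starts of all annotated transcripts of 22380 protein-coding genes in GENCODE vM1. Genome sequence was NCBIM37, and coordinates count from 1. Shares have Wilson intervals. These and the intervals of medians treat peaks as independent, although 51 of the 66 lay at 4 genes. They do not measure the spread between genes or between replicates. Analysis used Python 3.11.15, pandas 2.3.3, numpy 2.4.6 and scipy 1.17.1, and scripts were tested on simulated data.

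Peaks were described in full for genes with at least 5, and other genes by number, strongest peak and distance. Members and gene lists were chosen with earlier results of these data known. Alternatives changed the TSS set, assignment, thresholds, joining of peaks within 500 bp and motif window.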

Additional observations from a re-analysis of the deposited data

How the results depend on the processing

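Of 136 alternative values, 36 moved beyond the limits set for them (a count within 1.5 times the reported one, or a median or share within its interval), and 56 were identical, in part because a setting could not change them. The number of peaks at Polycomb genes, 66 as reported, was 26 for peaks in a gene or within 10 kb of it, 42 for assigned peaks within 100 kb of an own TSS, 38 at a fold of at least 10, 26 at a −log10 q of at least 50 and 35 without Rybp and Bcor. At that −log10 q, 7 genes kept a peak and the median fold was 25, and at a fold of at least 10 it was 18.7. The 1 peak within 1 kb of an own TSS became 2 by peak midpoint or with the gene and 10 kb around it, 10 with a promoter of 5 kb, and 0 at either threshold or with starts of protein-coding transcripts only. The share with a GATA word was 86.8% at a fold of at least 10 (all SCL peaks 79.1%), 84.6% at a −log10 q of at least 50 (79.8%), 86.4% within 100 bp (84.6%) and 89.4% over whole peaks (89.4%). The E-box share was 63.6% and 86.4% in the last 2 windows (all SCL peaks 73.6% and 90.1%), which are longer, and the composite share was 53.8% at a −log10 q of at least 50 (39.4%). Alternatives with starts of protein-coding transcripts only, without chromosome X, and without Rybp and Bcor were chosen after seeing the data. No paired analysis was possible because all libraries were merged before peaks were called, and for the same reason no replicate could be left out. A peak of few fragments limits precision, as a member peak had as few as 24.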

Other observations

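A further 35 genes of the Polycomb pathway, other than the 31 above, were counted by the same rule. Of these, 14 had a peak, where 28.9% of all protein-coding genes did, and 40 peaks were assigned in all, with a median fold of 14 against 11.1 over all peaks. Of the 35, only Auts2 and Foxk1 had at least 5, where 2.1% of all genes did. Auts2, whose product joins the PCGF5 form of PRC1, had 15 peaks with a highest fold of 38.9, spread over 1940 kb of DNA at 7.73 per Mb, which is less dense than at Pcgf5 (43) or Rybp (31.8). Foxk1, a forkhead factor that works with the H2A deubiquitinase, had 6 peaks with a highest fold of 41.6. Lcorl, of the PRC2 branch, had 4 peaks and the highest fold among these genes, 62.3, at 193.2 kb from its TSS. Cbx3 had 2 peaks with a highest fold of 35.4. Kdm6b, a demethylase of H3K27me3, had 2 peaks, of which 1 was within 10 kb of a start, and the other H3K27 demethylase of the list, Kdm6a, had none.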
